A study of Schizosaccharomyces pombe with 3 samples.

Results

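The subtelomeric cosmids of chromosomes 1 and 2 of fission yeast (Schizosaccharomyces pombe) were examined for occupancy by the corepressor subunit Tup11. The members are the array features whose gene name, after removal of the intergenic prefixes, begins with the name of any of 18 cosmids, the cloned pieces from which the genome was sequenced. This rule found 273 of the 10240 features on the array, namely 139 intergenic features and 134 open reading frame (ORF) features, and it used no measured value. Features were found for 15 of the 18 cosmid names and none for SPBPB21E7, SPBC1348 and SPBCPT2R1. Of the 265 members placed on the reference genome (ASM294v3), 261 lay within 150 kb of the end of chromosome 1 or 2, the farthest of them at 145.61 kb. The other 4 belong to cosmid SPBPB7E8, which the reference places 1039.55 to 1044.43 kb from the right end of chromosome 2. Position therefore goes against the label for that cosmid, and it is described apart. Genes that the array names by symbol, such as dak2 and ght3, are not members although they lie among them.

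The strain carried Tup11 fused to green fluorescent protein (Tup11-GFP) and was grown in rich YES medium to mid-log phase. An antibody against GFP pulled down the crosslinked chromatin. The pulled-down DNA and the input DNA, amplified and carrying the dyes Cy5 and Cy3, competed for the spots of an array of PCR products. All 3 arrays belong to this group, and the protocol describes separate experiments. The array labels carry the print batch names E120D (replicates 1 and 2) and F060D (replicate 3). No untagged strain, other strain or other medium was analysed here, so each value sets precipitate against input within the same chromatin.

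Tup11 is a WD-repeat protein that acts with its paralogue Tup12 and with Ssn6 as a corepressor: DNA-binding repressors bring the complex to promoters, where it helps to keep genes silent, as Tup1 and Ssn6 do in budding yeast. Fission yeast subtelomeres hold heterochromatin next to the telomere, with the telomere-linked helicase gene tlh1 among their repeated sequences. Further inwards they hold many genes for sugar use, nutrient uptake and stress that are kept low in rich medium.

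The intergenic features with the highest mean ratio at each chromosome end and the lowest intergenic feature among all members are shown by the 300 bases before the start of the gene each is named for, since the gap to the neighbouring gene is where the PCR product lies. Where a PCR product starts and stops within its gap was not known here, so it need not cover all of these bases. Sequences are from the RefSeq genome (ASM294v3), 5′ to 3′ on the strand of the gene. Capitals mark, on either strand, the words TGATAA and AGATAA, which the GATA factor Fep1 binds in iron-regulated promoters (on the other strand they read TTATCA and TTATCT). The windows are shu1 at chr1:86279-86578 (minus strand), gto1 at chr1:5474549-5474848 (minus strand), abc3 at chr2:122447-122746 (plus strand), gal10 at chr2:4487419-4487718 (minus strand) and SPAC212.06c at chr1:17772-18071 (plus strand).
shu1: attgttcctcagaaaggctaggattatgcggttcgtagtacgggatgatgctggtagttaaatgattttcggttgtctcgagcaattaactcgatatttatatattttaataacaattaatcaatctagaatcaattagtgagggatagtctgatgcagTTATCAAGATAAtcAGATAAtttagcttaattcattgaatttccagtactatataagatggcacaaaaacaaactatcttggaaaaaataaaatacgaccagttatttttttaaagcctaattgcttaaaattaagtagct
gto1: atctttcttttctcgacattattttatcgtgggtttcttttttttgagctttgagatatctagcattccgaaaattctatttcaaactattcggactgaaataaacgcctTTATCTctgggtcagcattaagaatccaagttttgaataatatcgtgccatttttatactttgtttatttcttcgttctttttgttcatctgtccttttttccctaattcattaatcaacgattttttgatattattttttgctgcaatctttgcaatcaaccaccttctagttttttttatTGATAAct
abc3: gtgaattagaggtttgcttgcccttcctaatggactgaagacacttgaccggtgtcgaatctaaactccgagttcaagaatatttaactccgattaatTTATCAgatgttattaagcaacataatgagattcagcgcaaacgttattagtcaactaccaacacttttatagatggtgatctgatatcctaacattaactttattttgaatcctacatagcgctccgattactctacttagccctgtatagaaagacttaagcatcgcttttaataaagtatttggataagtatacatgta
gal10: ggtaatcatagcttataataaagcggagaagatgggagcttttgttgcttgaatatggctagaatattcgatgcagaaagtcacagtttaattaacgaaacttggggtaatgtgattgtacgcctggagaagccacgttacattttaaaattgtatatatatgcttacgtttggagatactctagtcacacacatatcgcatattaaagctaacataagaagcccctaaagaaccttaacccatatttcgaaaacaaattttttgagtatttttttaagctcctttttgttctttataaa
SPAC212.06c: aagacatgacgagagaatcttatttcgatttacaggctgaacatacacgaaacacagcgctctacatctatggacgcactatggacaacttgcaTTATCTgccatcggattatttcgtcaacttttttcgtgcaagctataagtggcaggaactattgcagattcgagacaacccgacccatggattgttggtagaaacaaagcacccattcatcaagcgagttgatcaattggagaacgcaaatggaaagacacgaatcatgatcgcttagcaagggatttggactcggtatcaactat

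The window of shu1 holds 1 TGATAA and 2 AGATAA, close together and not overlapping, and the window of gto1 holds 1 of each. The window of abc3 has 1 TGATAA and that of SPAC212.06c 1 AGATAA, and the window of gal10 holds neither. TGATAA was found on either strand in 27.1% and AGATAA in 25.4% of the 300-base windows before all 5144 coding genes, and in 34.2% and 38.3% of the 120 windows of member gaps with a placed coding gene. Among the windows of members above the array median (n = 23) the shares were 30.4% and 21.7%, and among measured members with no call (n = 38) they were 39.5% and 42.1%. The word TGACGT (cyclic AMP response element, bound by Atf1) stood in 7.5% of member windows against 5.33% of all, CCCCAC in 7.5% against 2.59%, CCCCTC in 2.5% against 1.98%, and the telomere repeat word GGTTACA in 4.17% against 2.41%. None of these 4 words stands in the 5 windows printed. Copies of repeated gaps count more than once in these shares, and a match describes letters and not a bound site.

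Each value is a log2 ratio of precipitate to input after setting the median spot of its array to 0, and a feature's error is the SD over the 3 arrays. The scanner tables do not say which channel letter is which dye, and the letters cannot mean the same on all arrays: with the same letters, replicates 1 and 2 correlated across features at r = 0.72, but replicate 3 correlated with them at r = -0.54 and r = -0.38. The labels thus leave the direction unsettled. On each array the channel followed by the deposited values was read as the precipitate, which is likely and not certain. A fit of the deposited values on both channels together was close on replicate 3 (multiple r = 0.97) and loose on replicates 1 and 2 (0.65 and 0.51). Alone, the channel read as the precipitate correlated with the deposited values at r = 0.50, 0.05 and 0.97 on replicates 1 to 3. The other channel had r = 0.23, -0.04 and 0.78, so on replicate 2 the single channels were hardly told apart. A second version of each result keeps the channel letters of replicates 1 and 2 for replicate 3, called the same-letters reading, and reading all arrays the other way would turn every sign. ORF and intergenic names are exchanged between the scanner tables and the deposited value tables. The names of the scanner tables were used, since their 64 control spots of Ef1-b had medians of -0.54, -0.65 and 0.74 on replicates 1 to 3, near the ORF feature ef1-b (-0.48, -0.84 and 0.52) and far from its intergenic feature (3.39, 1.82 and 3.61).

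A value needs signal in both channels, and this set which members could be compared. Of the 139 intergenic members 120, 71 and 132 were measured on replicates 1, 2 and 3, and 69 were measured on all of them (49.6%, against 29.4% of the other intergenic features). Of the 134 ORF members 119, 78 and 132 were measured, and 77 on all 3 arrays (57.5%, against 53.9% of the other ORF features). On replicate 2 a further 54 intergenic and 38 ORF members had precipitate signal and no input signal, so their ratio is not known there. All tests and medians below are over the members measured on all 3 arrays unless another set is named.

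Intergenic features of the subtelomeric cosmids were more often above the array median than intergenic features in general, and none was called below it. In limma, with Benjamini-Hochberg adjustment over all 4285 features measured on 3 arrays, 27 of 69 intergenic members (39.1%) were above the array median at an adjusted p under 0.05, where 25.4% of all intergenic features were. The count below was 0 (background 0.904%), with 1 below and 36 above at an unadjusted p under 0.05. The 25 called features with a placed gap lay in 21 separate gaps. By the protocol's rank rule, a median percentile rank of 85 or more over the arrays, 31 were on the binding list (44.9%, background 23.8%). Among ORF members 9 of 77 were above (11.7%, background 2.89%), 3 were below (3.9%, background 13.3%) and 9 were on the binding list (11.7%, background 2.48%). Over features of both kinds 11.0% were above, 8.8% below and 10.2% on the list. With GC content and length removed, 19 intergenic members were above, and the share of all features in that setting is not given here. The limma prior was so strong that all features share a single standard error, so these p-values rank means and the SD gives a feature's own spread. In the same-letters reading no member and no other feature was called in either direction. The binding list then held 21 of 69 intergenic members and 203 of 1479 other intergenic features, and 6 of 77 ORF members and 58 of 2660 other ORF features.

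**Figure D1:**
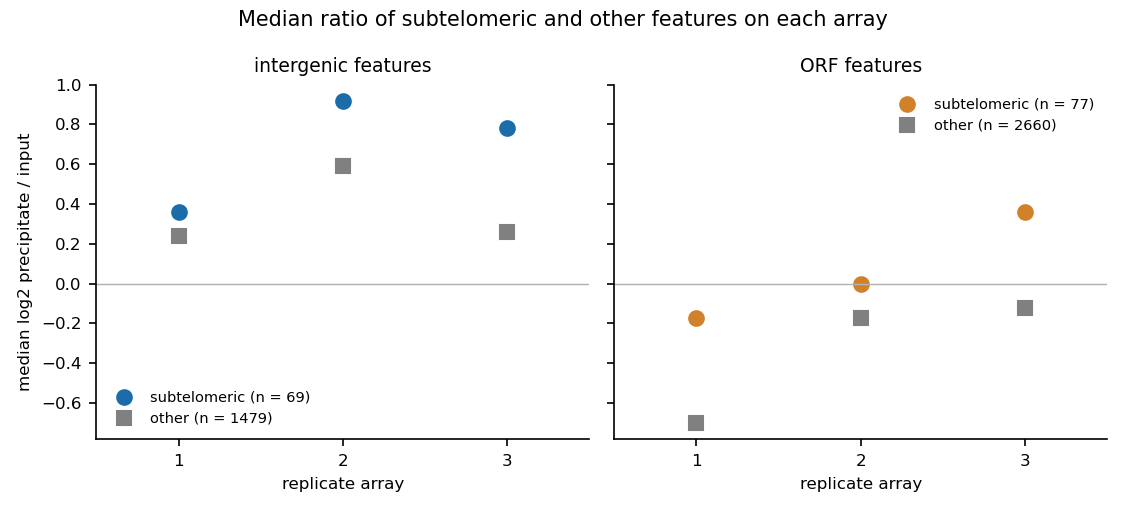
Median log2 precipitate over input of subtelomeric and other features on each replicate array, for intergenic features (left) and ORF features (right), over features measured on all 3 arrays. The subtelomeric median lies above the other median on every array for both kinds, by 0.13 to 0.52 for intergenic and 0.17 to 0.53 for ORF features, with replicate 3 in the likely direction.

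The medians tell the same order on each array in the likely direction. Intergenic members had medians of 0.36, 0.92 and 0.78 on replicates 1 to 3, and the other intergenic features 0.24, 0.59 and 0.26. The difference was 0.33 ± 0.20 (SD, n = 3 arrays; two-sided exact sign-flip test p = 0.25, the smallest that 3 arrays allow). ORF members had medians of -0.17, 0.00 and 0.36 against -0.70, -0.17 and -0.12, a difference of 0.39 ± 0.20 (exact sign-flip p = 0.25). The print batches gave 0.23 (E120D, 2 arrays) and 0.52 (F060D, 1 array) for intergenic and 0.35 and 0.48 for ORF features. In the same-letters reading the differences were -0.02 ± 0.45 (exact sign-flip p = 1.0) and 0.07 ± 0.51 (exact p = 0.75), so neither was larger than its spread there.

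Upstream regions stood above coding regions within the subtelomeric cosmids by about as much as elsewhere. Intergenic minus ORF members was 0.53, 0.92 and 0.43 on the 3 arrays, with a mean of 0.63 ± 0.26 (exact sign-flip p = 0.25), and over all other features it was 0.69 ± 0.28. The difference between these was -0.07 ± 0.30 (exact sign-flip p = 1.0). The batches gave 0.73 (E120D) and 0.43 (F060D), and the same-letters reading 0.34 ± 0.69 (exact sign-flip p = 0.50). Of the 35 members with both an upstream and an ORF feature measured, the upstream mean was higher in 29 (82.9%), and it was higher on every array in 20 (57.1%). Over 717 other genes the shares were 83.8% and 57.0%. The widest such gap was at abc3, with 2.65 upstream and 0.15 over the ORF.

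High features were found mostly between 50 and 150 kb from the chromosome end, and the outermost 50 kb held few. Within 50 kb of an end 29 intergenic members had a median of 0.39, with 3 called above, 0 below and 5 on the binding list. From 50 to 150 kb, 36 intergenic members had a median of 1.25, with 21 above, 0 below and 23 on the list. Of ORF members, 30 within 50 kb had a median of -0.23 with 0 above, 2 below and 0 on the list, and 44 farther in had 0.54 with 9 above, 1 below and 9 on the list. Of all intergenic features 25.4% were above, 0.904% below and 23.8% on the list, and of all ORF features 2.89%, 13.3% and 2.48%. Features of chromosomes 1 and 2 that are not members but lie at 50 to 150 kb had a median of 0.66 over 15 intergenic features, with 7 above, and of -0.39 over 22 ORF features, with 2 above and 3 below. Those farther in, at 150 to 300 kb, had medians of 0.42 over 61 intergenic and -0.37 over 143 ORF features. In the same-letters reading the 4 member medians were 0.06 and 0.34 for intergenic and -0.36 and 0.03 for ORF members. The planned windows were of 25 kb, and the cuts at 50 and 150 kb were not planned. The cut at 50 kb lies where the intergenic median stepped from 0.40 (25 to 50 kb, n = 16) to 1.42 (50 to 75 kb, n = 9). The contrast is thus description only. From 125 to 150 kb the medians were 0.62 over 3 intergenic and -0.08 over 6 ORF members. Every 25-kb window held fewer than 20 members, so no finer trend was read, and neighbouring features can share DNA fragments and are not independent.

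**Figure D2:**
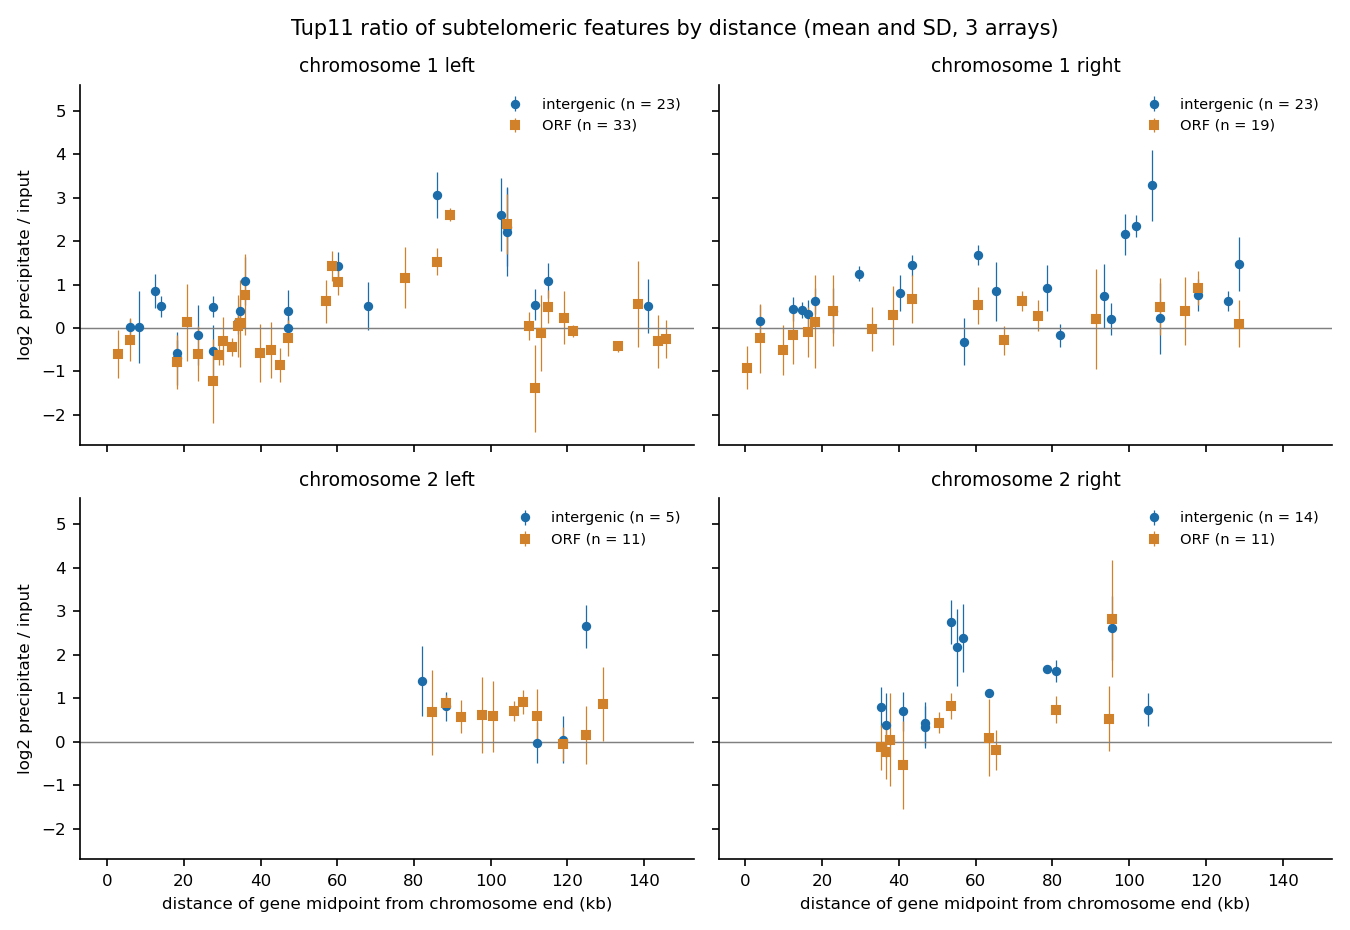
Mean log2 precipitate over input (points, with bars for the SD over 3 arrays) of each subtelomeric feature against the distance of its gene's midpoint from the chromosome end in kb, by chromosome end. The plotted intergenic means over 2 lie between 53.46 and 124.95 kb from an end, and the highest mean within 50 kb is 1.44, upstream of SPAC186.03.

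Repeated sequence and distance go together, and their parts in this pattern cannot be told apart in full. Of the members, 35 intergenic and 38 ORF features have another copy in the reference at 95% identity or more over 200 bp or more, so their spots can take up DNA from several places and their values are uncertain. Measured intergenic members with a copy had a median of 0.38 (n = 25, 2 above, 0 below) and those without 1.18 (n = 44, 25 above, 0 below). ORF members with a copy had -0.23 (n = 31, 0 above, 2 below) and those without 0.42 (n = 46, 9 above, 1 below). The shares over all features were 25.4% above and 0.904% below for intergenic and 2.89% and 13.3% for ORF features. The difference of medians per array, with minus without, was -0.85 ± 0.27 for intergenic and -0.65 ± 0.33 for ORF members (each exact sign-flip p = 0.25), and -0.42 ± 0.94 and -0.46 ± 0.65 in the same-letters reading. Few members within 50 kb had no copy: 6 intergenic ones had a median of 0.66 with 2 above, and 4 ORF ones had 0.21. Without a copy at 50 to 150 kb the medians were 1.39 over 35 intergenic and 0.52 over 39 ORF members.

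**Figure D3:**
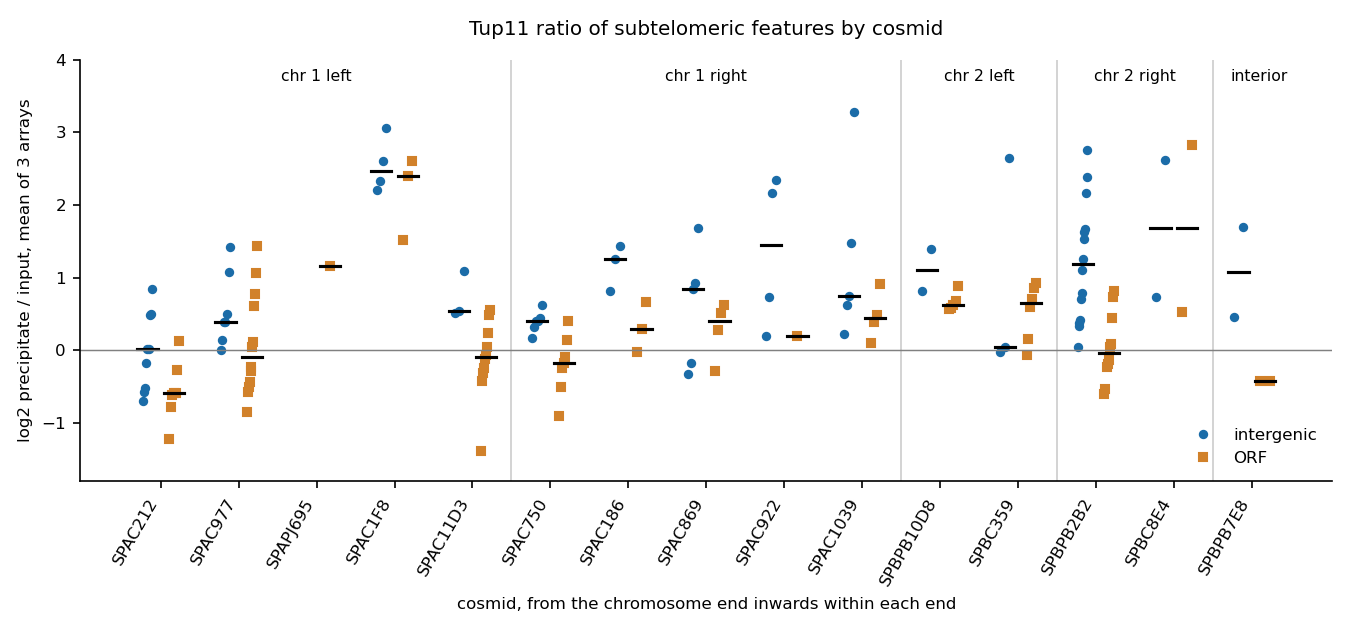
Mean log2 precipitate over input of each subtelomeric feature measured on all 3 arrays (points) with the median of each kind (bars), by cosmid from the chromosome end inwards. SPAC1F8 stands highest with intergenic and ORF medians of 2.47 and 2.40, and SPAC212 has medians of 0.02 and -0.59.

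The cosmid nearest the left end of chromosome 1, SPAC212, had no feature called above the median. Of all intergenic features 25.4% were above, and of all ORF features 2.89%. In SPAC212, 9 of 11 intergenic and 8 of 11 ORF members have a copy elsewhere in the reference. Its 9 measured intergenic features had a median of 0.02, with 0 above and 0 below, and its 7 measured ORF features a median of -0.59, with 0 above and 1 below. The highest intergenic mean was that upstream of SPAC212.08c, with 0.47, 1.25 and 0.84 (0.85 ± 0.39, adjusted p = 0.0667), which was on the binding list, and 5 of the 9 means were over 0. The called ORF was SPAC212.02, an uncharacterised gene, with -1.90, -1.65 and -0.12 on replicates 1 to 3 (adjusted p = 0.00502, lost without replicate 1 at -0.89, without replicate 2 at -1.01 and with loess at -0.92). The telomere-linked helicase gene tlh1 had -1.13, -0.04 and -0.61 over its ORF (mean -0.59 ± 0.55, adjusted p = 0.23), and the helicase-like gene SPAC212.06c had -1.50, -0.41 and -0.44 (-0.78 ± 0.62, adjusted p = 0.0974). Both ORFs were at or below the array median on every array, and both have near-identical copies elsewhere. The 2 intergenic features of SPAC212.06c, in the gap chr1:16227-18071, had -0.70 ± 0.60 and -0.58 ± 0.31, of which the former, with -1.11, -0.98 and 0.00, is the lowest intergenic mean of all members. Neither passed (adjusted p = 0.146 and 0.25). In the same-letters reading these 4 features had means between -0.19 and -0.70.

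Next inwards, SPAC977 had a few raised features among those measured on all 3 arrays. These 7 intergenic features had a median of 0.39 with 2 above, and the 12 ORF features a median of -0.09 with 2 above. Most of its 17 intergenic members were not measured on all arrays. On replicate 3, 16 of them were read, with a median of 0.94, and those without a value on another array ran from 0.35 to 2.74. The 15 ORF features read there had a median of 0.39. A second product of the gap upstream of SPAC977.05c, at 36.08 kb, had 1.49, 0.44 and 1.32 (1.08 ± 0.56, adjusted p = 0.0153), and its call was lost without replicate 1 (0.88) and without replicate 3 (0.96). This gap has a copy elsewhere. SPAC977.14c, at 60.24 kb, which encodes an aldo-keto reductase family protein, had 1.38, 1.11 and 1.76 upstream (1.42 ± 0.33, adjusted p = 0.000863) and 1.18, 0.72 and 1.28 over the ORF (1.06 ± 0.30, adjusted p = 0.0177). The adjacent annotated feature SPAC977.13c had 1.43 ± 0.35 (adjusted p = 0.000752). All of these values lay above 0 on every array, though the ORF call of SPAC977.14c was lost without replicate 1 and without replicate 3. The same-letters means of these features were 0.24, 0.21 and 0.25. The single measured ORF of SPAPJ695, SPAPJ695.01c, had 1.23, 0.42 and 1.82 (1.16 ± 0.70, adjusted p = 0.00833), a call lost without replicate 1 (1.12) and without replicate 3 (0.83).

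SPAC1F8, at 85.94 to 104.12 kb from the left end, was the cosmid with the highest values, and all 4 intergenic and 3 ORF features measured on 3 arrays were above the median and on the binding list. The gap between shu1, which encodes a cell-surface protein for haem uptake, and the siderophore-iron transporter gene str3 had 3.25, 2.47 and 3.46 (3.06 ± 0.52, chr1:86279-88366, adjusted p = 1.01e-15). The ORFs on either side were also raised: shu1 had 1.81, 1.20 and 1.56 (1.52 ± 0.31, adjusted p = 0.000285) and str3 had 2.74, 2.66 and 2.44 (2.61 ± 0.15, adjusted p = 1.47e-11). The str3 values lay within 0.30 of each other on the 3 arrays, while the shu1 ORF lost its call without replicate 1 (mean 1.38). The feature upstream of str3 had no input signal on replicate 2, and it had 3.22 and 3.65 on replicates 1 and 3. That of the next gene, hhy1, had 2.72 and 2.02 there, and the hhy1 ORF 1.55 and 1.64. Every feature from the shu1 ORF to the gap upstream of hhy1 (chr1:85598-95999) was thus above 1 on each array that measured it.

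A separate raised stretch of SPAC1F8 lay at pdc101, which encodes a pyruvate decarboxylase of alcoholic fermentation. Its short upstream gap (chr1:103545-103940), shared with the divergent gene SPAC1F8.08, carries 3 array features. The feature named for pdc101 had 2.41, 1.87 and 3.53 (2.61 ± 0.85, adjusted p = 1.63e-11), and those named for SPAC1F8.08 had 2.21 ± 1.01 and 2.33 ± 0.91. These 3 values come from the same gap and are not separate regions. The ORF of SPAC1F8.08, of 363 bp, had 2.29, 1.77 and 3.14 (2.40 ± 0.69, adjusted p = 7.41e-10), while the pdc101 ORF, measured on replicates 1 and 3 only, had 0.25 and 0.63. Between the stretches the flocculin-family gene pfl8 had -0.11 and 0.33 over its ORF on replicates 1 and 3. In the same-letters reading the 7 SPAC1F8 features measured on 3 arrays had means from -0.01, for a feature of the pdc101 gap, to 0.98 for str3, and none was called.

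The innermost cosmid of that end, SPAC11D3, had the lowest ORF of all members. The uncharacterised gene SPAC11D3.03c had -2.33, -1.48 and -0.35 (-1.39 ± 1.00, adjusted p = 0.00119, lost without replicate 1 at a mean of -0.91 and with loess at -1.04), while the feature upstream of it had 0.54 ± 0.36 with no call. All 17 intergenic members of this cosmid were read on replicate 3, with a median of 0.76. Those not measured on all arrays ran there from -0.10 to 1.71, so some were higher than the feature called next. Of the 3 intergenic features measured on all arrays 1 was above, that of the major facilitator transporter gene mfs2, with 1.55, 0.97 and 0.76 (1.09 ± 0.41, adjusted p = 0.0143). This call was lost without replicate 1 (mean 0.86) and without replicate 2 (1.15). Over the whole left end of chromosome 1, members minus other features was 0.14 ± 0.22 for intergenic and 0.16 ± 0.22 for ORF features (each exact sign-flip p = 0.50). These were the smallest differences of the 4 ends, and in the same-letters reading they were -0.12 ± 0.23 and -0.06 ± 0.29. The ends cover different distances and shares of repeated sequence, so their order does not compare like parts. None of the 8 comparisons by end and kind could fall below an exact p of 0.25.

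The outermost cosmid at the right end of chromosome 1, SPAC750, had no feature called above the median either, but it shares sequence with SPAC212. Of all intergenic features 25.4% were above, and of all ORF features 2.89%. Among its members, 6 of 8 intergenic and 7 of 8 ORF features have a copy, several of them in SPAC212. Their spots can take up the same DNA, so the cosmids are not separate cases. The 6 measured intergenic features of SPAC750 had a median of 0.41, with all means over 0, between 0.17 and 0.63. Its 7 measured ORF features had a median of -0.17 with 1 below. That ORF, SPAC750.08c, annotated as a malic enzyme, had -1.34, -0.99 and -0.38 (-0.91 ± 0.49, adjusted p = 0.0491) and has copies at other ends. Its call was lost without replicate 1 (-0.69), without replicate 2 (-0.86) and with loess (-0.59). In the next cosmid, SPAC186, the features upstream of the asparaginase gene SPAC186.03 (1.44 ± 0.25, adjusted p = 0.000682) and of the lactate dehydrogenase gene SPAC186.08c (1.25 ± 0.18, adjusted p = 0.00412) were above, and all 6 of their values on the 3 arrays were over 1, though the call of SPAC186.08c was lost without replicate 1 (1.34). The SPAC186.03 ORF, with a copy elsewhere, had 0.66 ± 0.55 and no call.

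The highest intergenic mean of all members was at gto1, in cosmid SPAC1039 at 106.08 kb from the right end of chromosome 1. The gene is annotated as an alpha-glucosidase, and its upstream feature had 3.44, 2.40 and 4.01 (3.28 ± 0.81, adjusted p = 6.57e-18). The gap (chr1:5474549-5476876) is shared with the divergent gene SPAC922.03, a putative aminocyclopropane-carboxylate deaminase, whose feature had 2.60, 2.11 and 2.31 (2.34 ± 0.25, adjusted p = 2.17e-09). The next gap, upstream of the uncharacterised gene SPAC922.04, had 2.42, 1.62 and 2.44 (2.16 ± 0.47, adjusted p = 4.19e-08). The 3 features were over 1.6 on every array in the likely direction, and their same-letters means were 0.61, 0.80 and 0.53. The gto1 ORF, measured on replicates 1 and 3, had 1.04 and 0.85.

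Other raised features of this end were less high. The feature upstream of yhb1, which encodes a nitric oxide dioxygenase that detoxifies nitric oxide, had 1.49, 1.61 and 1.93 (1.68 ± 0.22, adjusted p = 4.62e-05), and the yhb1 ORF 0.52 ± 0.43 with no call. The feature of mel1, a melibiase (alpha-galactosidase) gene, had 0.46, 1.51 and 0.79 (0.92 ± 0.54, adjusted p = 0.0451), and lost its call without replicate 1 (1.15), without replicate 2 (0.63) and with loess (0.55). The highest ORF of the end was SPAC1039.06, annotated as a D-serine ammonia-lyase, with 1.05, 1.21 and 0.47 (0.91 ± 0.39, adjusted p = 0.048), lost without replicate 1 (0.84), without replicate 2 (0.76) and with loess (0.47). At the low side a further product of the gap upstream of the amidase gene SPAC869.01 had -0.67, -0.58 and 0.31 (-0.32 ± 0.54, no call). Members minus other features at this end was 0.31 ± 0.21 for intergenic and 0.43 ± 0.14 for ORF features (each exact sign-flip p = 0.25), and -0.04 ± 0.43 and 0.16 ± 0.51 in the same-letters reading.

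At the left end of chromosome 2 the members begin 82.12 kb from the end of the reference chromosome, so the repeated outer part is not covered. Of 5 intergenic features 2 were above. The gap between pfl7, a cell-surface glycoprotein gene, and the divergent gene abc3, which encodes an ABC transporter, carries 2 member features that differed widely (chr2:119329-122746). The product named for abc3 had 2.74, 2.12 and 3.08 (2.65 ± 0.49, adjusted p = 7.85e-12) and the member named for pfl7 had -0.12, -0.39 and 0.65 (0.05 ± 0.54, adjusted p = 0.945), and they did not overlap on any array. A further product named for pfl7, not a member because its name has a plate prefix, had a mean of -0.19 ± 0.31. The abc3 ORF had 0.15 ± 0.67 and the pfl7 ORF -0.06 ± 0.39, the lowest ORF mean of this end. The feature upstream of the cysteine transporter gene SPBPB10D8.01 had 1.41, 2.18 and 0.59 (1.39 ± 0.80, adjusted p = 0.00111). Its call was lost without replicate 1 (1.38) and without replicate 2 (1.00). The same-letters means were 0.59 for the abc3 feature, -0.38 for the pfl7 feature and 1.00 for that of SPBPB10D8.01.

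ORF features at this end stood out from other ORF features by the widest margin, though few passed alone. The ends cover different distances, from 82.12 kb here but from 2.83 kb at the left end of chromosome 1. Over all ends, ORF members had a median of -0.23 within 50 kb and 0.54 at 50 to 150 kb. The order of the ends cannot be told apart from this coverage. Their 11 values had a median of 0.62 with 1 above and 0 below, and members minus other ORF features was 1.33, 0.49 and 1.13 on the 3 arrays (0.99 ± 0.44, exact sign-flip p = 0.25). The intergenic difference, over 5 features, was 0.40 ± 0.16 (exact sign-flip p = 0.25). The same-letters differences were 0.23 ± 1.25 and 0.15 ± 0.49. The called ORF was alr2, an alanine racemase gene, with 1.21, 0.65 and 0.90 (0.92 ± 0.28, adjusted p = 0.0458), and its call was lost without any single replicate (means 0.78 to 1.05) and with loess (0.76). SPBPB10D8.03 had 0.68, 0.99 and 1.01 (0.89 ± 0.19, adjusted p = 0.0526). The transporter genes SPBPB10D8.04c, SPBPB10D8.06c and SPBPB10D8.07c, which are copies of each other in the reference, had 0.57, 0.62 and 0.58, and their values are uncertain for that reason.

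The right end of chromosome 2 had the largest intergenic difference from other features, and its highest intergenic mean was at the galactose genes. Its placed members begin 35.38 kb from the end, so this rank is not over like distances. Cosmid SPBPB2B2 had 8 of 14 intergenic features above and a median of 1.19, while its 10 ORF features had a median of -0.04 with 0 above and 0 below. The gap between gal10, which encodes UDP-glucose 4-epimerase, and the galactokinase gene gal1 (chr2:4487419-4488490) had 2.84, 2.21 and 3.20 (2.75 ± 0.50, adjusted p = 9.25e-13). A feature of this gap named for gal1 had 3.24 and 2.75 on replicates 1 and 3 and no signal in either channel on replicate 2. The gap between gal7, the galactose-1-phosphate uridylyltransferase gene, and tgd1 (chr2:4483679-4484058) had 2.73, 1.5 and 2.94 for the gal7 feature (2.39 ± 0.78, adjusted p = 8.8e-10) and 2.17 ± 0.88 for the tgd1 feature. The ORFs of gal10 (0.82 ± 0.29, adjusted p = 0.0792) and gal1 (0.44 ± 0.25, adjusted p = 0.40) were not called. The same-letters means were 0.61, 0.43 and 0.25 for the gal10, gal7 and tgd1 features.

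Further in, upstream of the amino-acid permease gene nrg1 and of say1, a sterol deacetylase gene, the values were alike on the 3 arrays. The nrg1 feature had 1.35, 1.68 and 1.87 (1.63 ± 0.26, adjusted p = 8.07e-05) and the say1 feature 1.73, 1.71 and 1.57 (1.67 ± 0.08, adjusted p = 5.2e-05). The say1 call was lost with loess (1.04). The lowest intergenic mean of this end was upstream of ftm7, with -0.02, 0.00 and 0.14 (0.04 ± 0.09). The lowest ORF of the end was SPBPB2B2.20c, which has no place in the reference used here, with -0.60 ± 0.49 and no call.

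In cosmid SPBC8E4 the highest ORF mean of all members was that of SPBC8E4.02c, which the reference lists as prt2, a gene for a non-coding RNA that overlaps the phosphate transporter gene pho84. It had 2.83, 1.48 and 4.17 (2.83 ± 1.34, adjusted p = 1.82e-13), the widest spread among the named features, and the feature upstream of it had 2.49, 1.96 and 3.41 (2.62 ± 0.73, adjusted p = 1.37e-11). The pho84 ORF had 0.50, -0.21 and 1.29 (0.53 ± 0.75, adjusted p = 0.302). The prt2 and pho84 features overlap in the reference, yet the former was higher on every array, by the most on replicate 3. The same-letters means were 0.05 for the prt2 ORF feature, 0.35 upstream and -0.33 for pho84. Over this end members minus other features was 0.93, 0.68 and 0.85 on the 3 arrays for intergenic features (0.82 ± 0.13) and 0.53 ± 0.06 for ORF features (each exact sign-flip p = 0.25), against 0.25 ± 0.96 and 0.15 ± 0.62 in the same-letters reading.

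**Figure D4:**
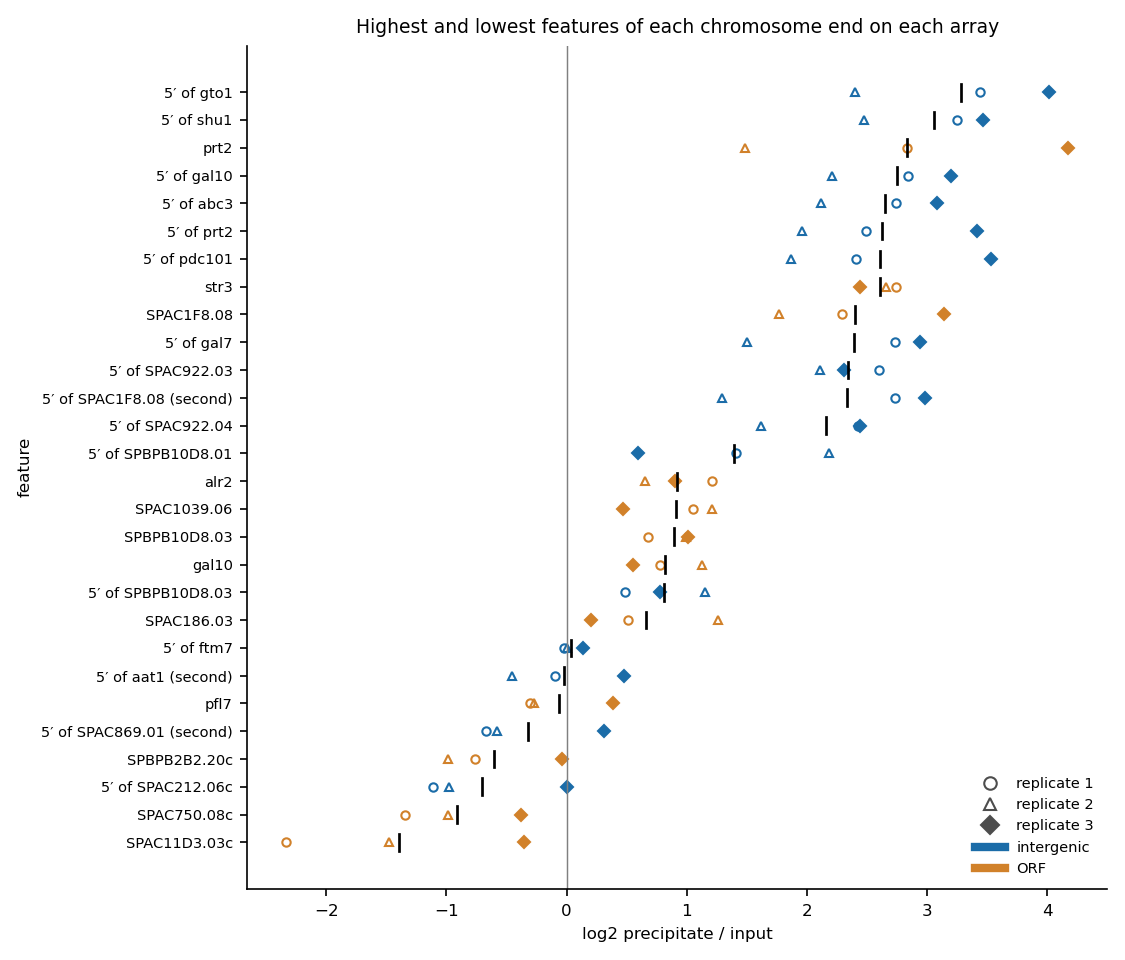
Log2 precipitate over input on each array (open circles, triangles and filled diamonds for replicates 1 to 3) with the mean (bar) for the highest and lowest intergenic and ORF features of each chromosome end. In the likely direction the upstream features of gto1, shu1, gal10, abc3, prt2 and gal7 lie above 1 on every array, and replicate 2 gives the lowest value of each.

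Cosmid SPBPB7E8, away from the ends, had 2 measured intergenic and 2 measured ORF features. The gap upstream of SPBPB7E8.01 had 1.52, 1.55 and 2.03 (1.70 ± 0.29, adjusted p = 3.46e-05), and this gap holds sequence repeated elsewhere in the genome. Both ORFs had means of -0.42 with no call. Without this cosmid 26 intergenic members were above, and the differences from other features were 0.33 for intergenic and 0.42 for ORF features. Without SPAC1F8, the cosmid with the highest values, 23 intergenic and 6 ORF members were above and the differences were 0.31 and 0.33. Both of these variants were chosen after seeing the data.

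By function, the measured features upstream of sugar and fermentation genes were all called, and their ORFs were mostly not measured on all arrays. The lists were chosen with earlier results of these data known, so their counts are description and give no separate support. The counts below stand beside 25.4% of all intergenic and 2.89% of all ORF features called above, and 39.1% and 11.7% of the members. All 5 measured of the 7 such intergenic members were above (gto1, gal10, pdc101, gal7 and mel1), with a median of 2.61, where the median over all intergenic members was 0.74. Of these, mel1 lost its call without replicate 1, without replicate 2 and with loess. Of the 7 ORFs of this list 2 were measured and 0 called. Of the haem and iron uptake genes shu1 and str3, the 1 measured upstream feature and both ORFs were above. Of 20 intergenic members upstream of permease and transporter genes 8 were measured, with 3 above (nrg1, SPBPB10D8.01 and mfs2), 0 below and a median of 0.77, from -0.02 at a product of the gap upstream of the amino acid transporter gene aat1 to 1.63. Of 14 measured ORFs of that list 1 was above (str3, also on the list before), 0 below, with a median of 0.57 against 0.11 over all ORF members. The helicase genes had 0 called of 4 measured features. The words flocculin, adhesin and cell wall matched no member's product. The pfl genes, a list added after the values were seen, had 0 called of 1 intergenic and 2 ORF features measured, namely the features of pfl7 and the pfl6 ORF at -0.51 ± 0.65. The same-letters medians were 0.43 for the sugar and 0.16 for the transporter upstream features and -0.17 for the transporter ORFs.

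Means spanned less within groups of ORFs that share sequence than within groups of gaps that do. A match of 200 bp or more need not cover a whole gap, so the products of a gap group need not share sequence. Gap groups also held up to 4 measured features and ORF groups up to 3. There were 11 groups of ORF members at 95% identity or more, with 28 features, and in the 8 groups with at least 2 measured the means spanned 0.05 to 0.67 (median 0.18). The 6 groups of intergenic members held 23 features, and their means spanned 0.35 to 1.19 (median 0.62). The widest span was in a group of the SPAC212.02 and SPAC212.06c gaps, from -0.70 to 0.49. In it, 2 features of the same gap, that of SPAC212.02, already had 0.49 and -0.52. Where the PCR products lie within these gaps was not known here. Among the ORFs, SPAC212.01c and SPAC750.06c from opposite ends of chromosome 1 had -0.61 and -0.50.

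The members left out of the fit were not low where they could be read. The same medians for other features left out are not given here, so these values do not set the members apart. Of the 70 intergenic members not measured on all arrays, 51 had a value on replicate 1, with a median of 1.25 from -0.18 to 3.24, and 63 on replicate 3, with a median of 0.73 from -0.47 to 3.65. Of the 57 such ORF members, 42 had a median of 0.55 on replicate 1 and 55 had 0.33 on replicate 3. With every feature measured on each array, a variant chosen after seeing the data, the difference from other features was 0.45 for intergenic and 0.42 for ORF members.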

How the data were processed

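DNA bound by Tup11-GFP was measured against input on 3 two-colour arrays, and the protocol in the labels describes separate experiments; where these share cultures is not stated. The deposited scanner tables hold spot intensity values from which, per the file headers, the scanner software (TIGR Spotfinder, per the labels) had already subtracted local background. They are not scaled between channels or arrays. In the deposited value tables the numbers look like log10 values, which the authors scaled to the array median, per the labels' protocol; what they are a log of is not stated, and their medians were 0.04, 0.14 and 0.01. Their ORF and intergenic names are exchanged, so the names of the scanner tables were used. No source used here names software versions or the genome build of the array design.

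Spots without signal in both channels and control spots were left out, log2 of precipitate over input was centred on the median spot of each array, and the 2 spots of a feature were averaged. Features measured on all 3 arrays were tested against 0 with limma 3.58.1 in R 4.3.3, with Benjamini-Hochberg adjustment over 4285 features at a threshold of 0.05, after a test on simulated data. The prior SD was 0.607 with infinite prior degrees of freedom. The number of arrays limits the precision. Of the 273 members 265 matched a gene of ASM294v3 by name and 264 have coordinates, and 9729 of all features (95.0%) matched. An intergenic feature carries the coordinates of the whole gap. Copies were found with BLAST 2.17.0. The 4 features with a plate prefix in their name were left out.

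The features named are, at each end, the 3 highest intergenic, the 2 highest ORF, and the lowest of each kind, the members of the gene lists, and their neighbours. Further features were chosen after their values were seen (SPAC212.02, SPAC212.08c, SPAC977.05c, SPAC977.13c, SPAC977.14c, SPAPJ695.01c, SPAC186.08c, yhb1, say1 and the features of SPBPB7E8). The members and lists were chosen with earlier results of these data known. Alternatives were the channel reading, background correction, normalization, floors, filters, copies, the prior and each array left out.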

Additional observations from a re-analysis of the deposited data

How the results depend on the processing

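With replicate 3 read with the same letters, 0 intergenic members were above, 0 ORF members were above and 0 below. The differences from other features were -0.02 (intergenic, reversed) and 0.07 (ORF), and intergenic minus ORF was 0.34. By end, intergenic and ORF differences were then -0.12 and -0.06 (chromosome 1 left, both reversed), -0.04 and 0.16 (chromosome 1 right, the former reversed), 0.15 and 0.23 (chromosome 2 left) and 0.25 and 0.15 (chromosome 2 right). The deposited value tables gave 0 members of either kind above, 0 ORF below, 57 intergenic and 38 ORF members on the binding list, and differences of 0.86, 0.71 and 0.34. These tables hold values for another set of features, and the share of all features listed is not given here. Their values followed 1 channel with slopes of 0.87 to 1.1 and the other with only -0.21 to -0.11. They need not be the same measure as the log2 ratios, so these counts and differences cannot be set against the others. Normexp with offset 50 gave 1 ORF below and differences of 0.63, 0.76 and 0.94. Loess gave 0 ORF below, 16 ORF on the list and an intergenic difference of 0.53. Measured intergenic members had longer gaps (median 1554 against 963 bp) and a lower GC content (median 30.99% against 32.52%) than other intergenic features. The share of all features called after removing GC content and length is not given here, so the next counts have no background beside them. Removing GC content and length gave 19 intergenic members above and 23 on the list, 15 ORF on the list and 0.28 for intergenic minus ORF, with differences from other features of 0.29 and 0.33. It ended the calls upstream of SPAC977.14c (adjusted p = 0.0509 in limma), SPAC186.08c (0.0544), mfs2 (0.119), SPAC977.05c (0.167), mel1 (0.245) and SPBPB2B2.08 (0.123) and that of the SPAC750.08c ORF (0.211), and the features upstream of SPBPB2B2.03c and SPBPB2B2.20c, which have no coordinates, could not be corrected. Setting undetected input to a low signal gave 4 ORF above, a trended prior 0 ORF below, and leaving out copies 1 ORF below with differences of 0.81 and 0.71. For normexp, loess, low-signal input, the trended prior and left-out copies, the shares of all features called or listed are not given here either. The low-signal setting also takes in features without input signal. The cause of these shifts was not tested.

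Leaving out 1 array at a time gave 20 to 27 intergenic members above, 0 to 1 below and 25 to 33 on the list. For ORF members it gave 4 to 9 above, 0 to 5 below and 6 to 9 on the list. The shares of all features called or listed in these fits are not given here, so the counts have no background beside them. The differences ranged from 0.23 to 0.43 (intergenic), 0.32 to 0.50 (ORF) and 0.48 to 0.73 (intergenic minus ORF). Of the 27 intergenic calls 20 held without any single array, of the 9 ORF calls above 4, and of the 3 below 0. Of the 55 features taken from the naming rule and the gene lists, 22 lost their call in the same-letters reading, 5 with loess, and 8, 6 and 1 without replicates 1, 2 and 3. Loess added 4 calls among them and leaving out replicate 3 added 2. Neighbours and the features chosen after their values were seen are not among the 55. Several of the latter also lost calls, as given where each is described. Including the 4 plate-prefixed features left the counts at 27 and 9 above. This was added after seeing the data, as were the alternatives without SPAC1F8, without SPBPB7E8 and with every feature measured on each array. Print batch as a random block could not be fitted with 3 arrays. No paired analysis was possible because all arrays belong to a single group. Input signal limits what can be seen, since it was undetected for 63.8% of spots on replicate 2, control spots left out.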
